A study of Arabidopsis thaliana with 16 samples.

Results

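The strigolactone receptor mutant d14-7, of a class known for extra branches, was compared directly with scl28, a mutant whose rosette branching is suppressed according to the title of the series, without passing through wild type. The comparison used 8 of the 16 libraries of the series, 4 of d14-7 and 4 of scl28, and was made over all 20408 loci that passed a filter on low counts. Both lines are Arabidopsis thaliana mutants labelled as knockouts; the kind of lesion and whether each line is 1 mutant isolate are not given in the labels. The tissue was the lower stem with its axillary meristems, taken when the bolt of each plant was shorter than 1 cm, after leaves, roots and the elongated upper stem had been cut away. Each library holds the pooled tissue samples of 2 to 3 excised stems, and the 4 samples of best RNA integrity out of 5 were sequenced for each genotype. Harvest took place on day 23 from sowing for d14-7 and on day 25 for scl28, always between 9 and 11 in the morning, in plants kept under 16 h of light and 8 h of dark. In no value below can genotype and harvest day be told apart. The 4 libraries of wild type Col-0 (WT, harvested on day 23) serve only to show on which side of a difference WT lay.

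Strigolactones are hormones that keep axillary buds from growing out. The receptor D14 binds the hormone and, with the F-box protein MAX2, marks the repressors SMXL6, SMXL7 and SMXL8 for degradation. Downstream, the TCP transcription factor BRC1 acts inside buds, where it activates the homeodomain genes HB21, HB40 and HB53, which in turn raise NCED3, a gene of abscisic acid synthesis. SCL28 is a GRAS transcription factor of the G2/M phase of the cell cycle, known in Arabidopsis to activate SIAMESE-RELATED inhibitors of cyclin-dependent kinases (CDKs), which slow division and favour endoreplication.

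Both targeted genes were lower in their own mutant, and transcript of both was still counted there. SCL28 (AT1G63100, chromosome 1, 23399112 to 23402176, minus strand, TAIR10.1) had 48.7, 60.3, 44.6 and 50.9 CPM (counts scaled to library size) in d14-7, against 18.4, 15.3, 14 and 14.5 CPM in scl28. The groups did not overlap, and the log2 fold change of d14-7 over scl28 was 1.73 ± 0.11 (SE, n = 4 libraries each, edgeR adjusted p = 2.58e-07). D14 (AT3G03990, chromosome 3, 1033579 to 1035237) had 27.7, 28.6, 32.3 and 33.3 CPM in d14-7, against 37.5, 40.2, 40.1 and 40.1 CPM in scl28, a fall by 0.36 (SE 0.07, edgeR adjusted p = 0.00137) without overlap.

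The difference between the mutants was broad. Of 20408 loci, 9180 (45%) passed an edgeR adjusted p under 0.05, 4630 (22.7%) higher and 4550 (22.3%) lower in d14-7, and these shares are the background for every gene group below. Only 901 loci (4.41%) were higher and 586 (2.87%) lower by at least 2-fold, and the median absolute log2 fold change of the called loci was 0.47. CPM values of the groups did not overlap at 8386 loci (41.1%). Totals were 24334925 to 35887553 counts per library in d14-7 and 28791965 to 36735056 in scl28. Libraries correlated at 0.988 to 0.99 within d14-7, at 0.984 to 0.99 within scl28 and at 0.955 to 0.965 between them, and the first principal component (65.9% of the variance) separated the genotypes.

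Some tissue markers moved with genotype. Of 22 photosynthesis genes of the leaf, 20 rose and 0 fell in d14-7, and their summed level was 40990 to 52294 CPM in d14-7 against 29673 to 32467 CPM in scl28. Their mean log2 CPM (the leaf score) was 10.71, 10.4, 10.63 and 10.79 in d14-7 and 9.94, 10.01, 9.82 and 9.78 in scl28, a difference of 0.74 (two-sided exact permutation test, p = 0.0286, the smallest that 4 against 4 libraries allow). The light-harvesting gene LHCB1.1 rose by 1.37 ± 0.13 and the Rubisco small subunit gene RBCS1A by 0.83 ± 0.09. Of 18 xylem and secondary wall genes 9 rose and 0 fell, 50% called against the background of 45%. Their log2 fold changes ran from -0.95 to 0.97, with the xylem protease gene XCP1 at 0.81 ± 0.09. Summed levels of the 18 were 374 to 434 CPM in d14-7 and 235 to 314 CPM in scl28. Their score overlapped, at 2.88 to 3.14 in d14-7 and 2.52 to 2.95 in scl28 (difference 0.28, two-sided exact permutation test, p = 0.0857). Floral organ identity genes summed to 22.8 to 24.4 CPM in d14-7 and 22.6 to 35.5 CPM in scl28. AP1 (-1.02 ± 0.19) and LFY (-0.67 ± 0.17) were lower in d14-7, and the other 8 did not pass. Among 3 phloem genes SUC2, a sucrose transporter gene, rose (0.62 ± 0.22), 33.3% called against the background of 45%. The other 2 did not pass, with a lowest log2 fold change of -0.11 and a list median of -0.1. Summed levels of the phloem genes were 139 to 185 CPM in d14-7 against 130 to 174 CPM in scl28. Of 9 root markers only 2 passed the filter, with 4.93 to 6.09 CPM in sum in d14-7 and 2.37 to 4.64 CPM in scl28, and no marker of any list was at 0 in all 8 libraries. By the same test the score of the 2 root genes differed by 0.70 (exact p = 0.0286), that of the floral genes by -0.31 (exact p = 0.257) and that of the phloem genes by 0.13 (exact p = 0.429). The call of SUC2 was lost without any of d14-7 replicates 1 and 3 or scl28 replicates 1, 2 and 3, leaving 0 phloem genes up. That of the root-expressed nitrate transporter gene NRT2.1 (0.89 ± 0.32) was lost without any of these libraries or d14-7 replicate 4, leaving 0 root genes up. A single floral gene passed as higher without scl28 replicate 2, and 1 xylem gene as lower without d14-7 replicate 2 or 3. In bulk tissue, fewer cells of a type and less RNA per cell cannot be told apart. WT libraries spanned leaf scores from 9.83 to 10.7, which is nearly the range of both mutants, so WT levels are given where they bear on a result.

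The genes of bud dormancy were sharply lower in d14-7, with 8 of 9 called lower, 8 of them by at least 2-fold, and a median log2 fold change of -3.29 against 0 over all loci. BRC1 (AT3G18550, chromosome 3, 6383289 to 6385815) had 0.337, 0.372, 0.494 and 0.288 CPM in d14-7, against 9.89, 5.44, 9.25 and 9.35 CPM in scl28. Its log2 fold change was -4.49 ± 0.25 (edgeR adjusted p = 9.72e-08), and even the low scl28 replicate 2 lay well above every d14-7 library. WT, at 6.79, 6.91, 6.27 and 7.98 CPM, lay above scl28 replicate 2 and below every other scl28 library. HB40 had 0.295, 0.0931, 0.165 and 0.23 CPM in d14-7, against 7.14, 7.43, 7.47 and 6.25 CPM in scl28 (-5.18 ± 0.23, edgeR adjusted p = 1.92e-08). Its WT libraries held 3.58, 4.34, 4.56 and 4.48 CPM, below every scl28 library.

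The other homeodomain genes of the module behaved alike. HB21 had 0.885, 0.528, 0.329 and 0.461 CPM in d14-7 and 5.19, 6.5, 5.55 and 6.87 CPM in scl28 (-3.48 ± 0.24). HB53 had 0.758, 0.559, 1.32 and 0.576 CPM in d14-7 and 8.66, 8.46, 9.95 and 10.2 CPM in scl28 (-3.54 ± 0.22). NCED3, the enzyme gene of abscisic acid synthesis that acts after them, had 0.885, 1.12, 0.724 and 0.691 CPM in d14-7 and 6.52, 4.78, 8.91 and 8.66 CPM in scl28 (-3.07 ± 0.24). All 3 were separate between the mutants, as were 41.1% of all loci. WT ran from 2.37 to 8.7, from 3.54 to 11.2 and from 2.96 to 11.6 CPM for HB21, HB53 and NCED3. HIS1-3, a drought-induced linker histone gene used as a dormancy marker, fell by 3.29 (SE 0.23) and the dormancy-associated gene DRM2 by 2.11 (SE 0.27). Its relative DRM1 fell by 1.36 (SE 0.12). When transcript models were tested singly, the DRM1 model with the most counts fell by 2.16. DRM2 had 0.421, 0.528, 0.494 and 1.07 CPM in d14-7 and 2.79, 3.2, 2.24 and 2.98 CPM in scl28, beside 5.2, 9.05, 8.59 and 18.2 CPM in WT, so that every scl28 library lay below every WT library. BRC2, the close relative of BRC1, was the exception in the list. It had 3.88, 4.97, 4.8 and 4.23 CPM in d14-7 and 4.06, 4.13, 4.91 and 5.08 CPM in scl28, with overlap (-0.02 ± 0.14, edgeR adjusted p = 0.934).

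**Figure D1:**
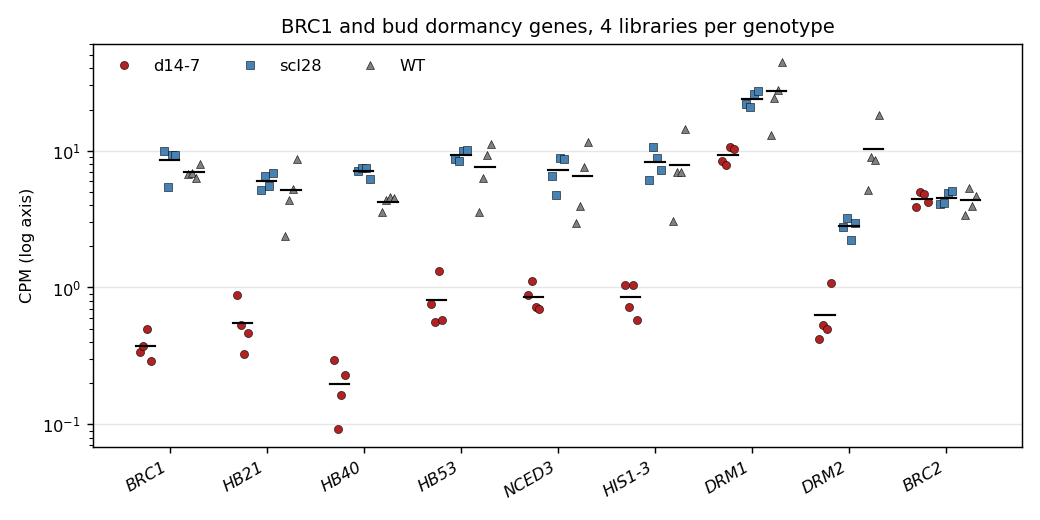
Level in CPM (log axis) of BRC1 and the other dormancy genes in each library of d14-7 (circles), scl28 (squares) and WT (triangles), with a bar at the mean of the 4 libraries. In 8 genes all d14-7 libraries lie below all scl28 libraries, as in BRC1 at 0.288 to 0.494 CPM in d14-7 against 5.44 to 9.89 CPM in scl28, and BRC2 overlaps. Over all loci tested, the groups did not overlap at 41.1%, counting either direction.

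In the strigolactone pathway, most synthesis genes were higher and SMXL6, SMXL7 and SMXL8 lower in d14-7, 4 of 15 members up and 9 down. MAX4, a carotenoid cleavage dioxygenase gene of strigolactone synthesis, had 45.5, 35.8, 45 and 31.6 CPM in d14-7 and 8.18, 7.29, 9.31 and 7.88 CPM in scl28 (2.27 ± 0.13, edgeR adjusted p = 1.51e-07). MAX3, the dioxygenase gene of the preceding step, had 22.7, 16, 23.4 and 14.7 CPM in d14-7 and 2.82, 2.3, 3.68 and 2.13 CPM in scl28 (2.80 ± 0.20). All scl28 libraries of MAX4 in turn stood above the 2.5 to 3.99 CPM of WT, whereas those of MAX3 partly overlapped the 0.748 to 2.35 CPM of WT. D27, the isomerase gene that starts the pathway, rose by 1.31 ± 0.22, and LBO, an oxidoreductase gene of a late step, by 0.96 ± 0.13. MAX1, the cytochrome P450 gene between them, went the other way, with 49.7, 47.5, 46 and 41.9 CPM in d14-7 and 65.9, 65.7, 71.2 and 66.8 CPM in scl28 (-0.54 ± 0.06).

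The 3 repressor genes whose proteins D14 targets fell by similar amounts. SMXL7 had 50.9, 48.3, 46.2 and 47.7 CPM in d14-7 and 127, 117, 130 and 134 CPM in scl28 (-1.39 ± 0.06, edgeR adjusted p = 1.83e-08). SMXL6 had 21.2, 22.3, 22.5 and 21.3 CPM in d14-7 and 62.8, 58.5, 55.7 and 60.1 CPM in scl28 (-1.44 ± 0.06), and SMXL8 fell by 1.64 (SE 0.08). For SMXL6 the scl28 libraries all lay above the 45 to 54.7 CPM of WT, and for SMXL7 they lay within the 102 to 148 CPM of WT. On the karrikin side, the receptor gene KAI2 fell by 0.46 (SE 0.08), the repressor gene SMXL2 by 0.63 (SE 0.10), and AT3G24420, annotated as an alpha/beta-hydrolase, by 1.57 (SE 0.25). The repressor gene SMAX1, sister of SMXL2 (SMAX1 at 0.13 ± 0.06), and the karrikin-induced F-box gene KUF1 (0.09 ± 0.17) did not pass. MAX2 fell by 0.27 (SE 0.09), a call lost without any of d14-7 replicates 1, 2 and 3 or scl28 replicates 1, 3 and 4, and when transcript models were tested singly. TCP1, a TCP gene in the same list, fell by 1.05 (SE 0.16), with 5.14 to 6.1 CPM in d14-7 and 8.76 to 15.9 CPM in scl28.

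Abscisic acid response was lower in d14-7: 18 of 24 measured genes fell and 0 rose, with a median of -0.78 (1 rose without d14-7 replicate 1). HB12, a homeodomain gene induced by abscisic acid, had 15.3, 18.2, 16.8 and 15.5 CPM in d14-7 and 67.7, 73.2, 67.9 and 60.6 CPM in scl28 (-2.02 ± 0.08, edgeR adjusted p = 8.19e-09). HAI1, a protein phosphatase 2C gene of the pathway, had 3.71, 4.84, 3.36 and 3.4 CPM in d14-7 and 18.5, 25.5, 26.6 and 21 CPM in scl28 (-2.57 ± 0.15). ABF3, a bZIP factor gene that carries the response, had 38.1, 35.5, 33.7 and 33.6 CPM in d14-7 and 84.1, 85, 90.3 and 87.2 CPM in scl28 (-1.29 ± 0.06). None of the 18 overlapped between the mutants. They were picked by the test, and over all 20408 loci 9180 passed and 8386 did not overlap. WT stood between them in 13 of the 18 and above both in 5, and in HB12, at 28.2 to 47.9 CPM, it lay below every scl28 library. The cold and drought genes COR15B (0.47) and LTI30 (0.50) were the members with the highest values, and neither passed.

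Among 8 measured genes of abscisic acid metabolism, 1 rose and 2 fell, 37.5% against the background of 45%. CYP707A4, a hydroxylase gene that breaks the hormone down, had 37.2, 34.1, 36 and 37.8 CPM in d14-7 and 10.6, 9.56, 9.79 and 11.5 CPM in scl28 (1.81 ± 0.08, edgeR adjusted p = 1.41e-08), while NCED3 fell as given above and ABA2, a later synthesis gene, fell by 0.44 (SE 0.06). The other 5 did not pass (1 more passed as higher without d14-7 replicate 4), among them CYP707A3 at -1.05 and NCED5 at -0.09. Outside the lists, LEA4-5, ABI5 and PUB19 were among the 12 largest falls of genes with a symbol. LEA4-5, a late embryogenesis abundant protein gene, had 0.253, 0.372, 0.165 and 0.202 CPM in d14-7 and 13.1, 12.9, 17.8 and 13.7 CPM in scl28 (-5.83 ± 0.21). ABI5, the bZIP factor gene of abscisic acid response in seeds and seedlings, had 0.8, 0.869, 0.856 and 0.662 CPM in d14-7 and 7.92, 6.43, 7.55 and 7.78 CPM in scl28 (-3.21 ± 0.15), and PUB19, a ubiquitin ligase gene of the U-box type, fell by 3.39 (SE 0.29).

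Promoter letters were compared between called loci and all loci. The abscisic acid response element (ABRE, letters ACGTGNC on either strand, which overlaps the G-box CACGTG) was searched from 250 bases before to 50 bases after the annotated start. It stood in 11.6% of the 19999 promoters read among the loci tested, in 10.9% of those called higher and 14.9% of those called lower in d14-7, and in 18.8% of those lower by at least 2-fold against 10.2% of those higher by at least 2-fold. Of the 24 abscisic acid response genes 8 had a match (33.3%), as had 10 of 17 clock genes (58.8%) and 2 of 9 BRC1 and bud dormancy genes (22.2%). The G-box was in 8.76% of all promoters and in 14.7% of those lower by at least 2-fold. The site TGGGCC, bound by TCP factors, was in 18.8% of all promoters, 5.89% of those higher and 9.06% of those lower by at least 2-fold. A match is a description of these letters and is not evidence of binding. Among the 40 named genes that fell at least 2-fold, 8 had an ABRE match in the 250 bases before the start and 5 had at least 2. Those 5 are shown with HB40 of the BRC1 module, which had 1 match and was added by choice. The sequences are the 250 bases before the RefSeq start of assembly TAIR10.1, 5′ to 3′ on the gene strand, with ABRE matches in capitals. They are LEA4-5 (chr5:2090431-2090680, minus strand), ABI5 (chr2:15207637-15207886, minus strand), PUB19 (chr1:22198016-22198265, plus strand), HB40 (chr4:17316442-17316691, minus strand), CCA1 (chr2:19245341-19245590, plus strand) and RVE1 (chr5:5692993-5693242, minus strand).
LEA4-5: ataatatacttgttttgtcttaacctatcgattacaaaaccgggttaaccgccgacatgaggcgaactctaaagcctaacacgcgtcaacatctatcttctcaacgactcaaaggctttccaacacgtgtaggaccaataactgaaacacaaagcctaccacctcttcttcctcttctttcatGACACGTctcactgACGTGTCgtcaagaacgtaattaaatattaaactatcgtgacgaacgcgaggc
ABI5: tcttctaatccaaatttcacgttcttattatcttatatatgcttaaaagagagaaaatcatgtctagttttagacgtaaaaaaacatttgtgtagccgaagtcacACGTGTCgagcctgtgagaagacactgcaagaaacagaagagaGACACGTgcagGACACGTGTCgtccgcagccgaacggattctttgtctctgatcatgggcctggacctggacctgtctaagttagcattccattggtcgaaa
PUB19: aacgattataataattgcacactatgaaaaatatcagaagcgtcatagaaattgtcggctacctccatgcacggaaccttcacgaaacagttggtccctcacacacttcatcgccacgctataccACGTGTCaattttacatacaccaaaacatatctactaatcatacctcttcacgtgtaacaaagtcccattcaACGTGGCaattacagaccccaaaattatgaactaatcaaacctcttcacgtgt
HB40: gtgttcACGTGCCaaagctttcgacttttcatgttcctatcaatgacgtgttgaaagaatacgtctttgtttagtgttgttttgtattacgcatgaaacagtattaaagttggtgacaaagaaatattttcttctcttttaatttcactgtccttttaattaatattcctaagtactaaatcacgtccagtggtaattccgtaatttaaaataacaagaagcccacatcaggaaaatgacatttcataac
CCA1: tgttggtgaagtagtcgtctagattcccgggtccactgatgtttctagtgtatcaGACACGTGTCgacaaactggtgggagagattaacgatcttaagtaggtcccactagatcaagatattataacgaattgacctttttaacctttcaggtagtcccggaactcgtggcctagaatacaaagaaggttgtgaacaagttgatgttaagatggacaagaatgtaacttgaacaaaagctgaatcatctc
RVE1: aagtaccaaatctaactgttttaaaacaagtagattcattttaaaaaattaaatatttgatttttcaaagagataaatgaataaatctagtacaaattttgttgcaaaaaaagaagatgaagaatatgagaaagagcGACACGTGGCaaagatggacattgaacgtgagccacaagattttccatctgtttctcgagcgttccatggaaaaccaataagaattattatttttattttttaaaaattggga
In ABI5 4 matches counted over both strands began 145 to 88 bases before the start, some of them overlapping as a palindrome. In CCA1 the 2 matches are the 2 strands of 1 palindromic run, at 195 bases before the start, and in RVE1 they overlap on opposite strands in the G-box, at 113 bases. In HB40 the match lay at 244 bases, at the edge of the window.

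Meristem and boundary genes were lower in d14-7, 17 of 24 measured members down and 1 up, with a median of -0.72. None of the 17 overlapped, but they were picked by the test, and 41.1% of all loci did not overlap. LSH3, expressed at organ boundaries, had 22.7, 21.8, 19.1 and 22.8 CPM in d14-7 and 53.2, 47.8, 56.2 and 58 CPM in scl28 (-1.31 ± 0.08, edgeR adjusted p = 2.15e-07). LOB and BOP2, also boundary genes, both fell by 1.18 (SE 0.08 and 0.10). The boundary gene CUC3, needed for axillary meristems, had 3.2, 4.28, 2.93 and 3.69 CPM in d14-7 and 8.5, 8.01, 7.36 and 7.41 CPM in scl28 (-1.14 ± 0.13), while WT held 2.77 to 3.74 CPM, with d14-7. LAS and RAX1, which initiate axillary meristems, fell by 1.16 (SE 0.24) and 0.88 (SE 0.21). Among the KNOX genes, KNAT2 fell by 1.09 (SE 0.09) and the meristem gene STM by 0.64 (SE 0.11), with 85.8 to 103 CPM in d14-7, 117 to 171 CPM in scl28 and 90.3 to 171 CPM in WT. CLV1, a receptor kinase gene of the shoot meristem, was the one that rose, with 70, 60.2, 82 and 71.7 CPM in d14-7 and 51.2, 44.3, 53.9 and 56.1 CPM in scl28 (0.47 ± 0.10). WUS and CLV3 did not pass the filter in these samples.

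Cell division genes of the G2/M phase differed little between the mutants. Of 26 G2/M genes 5 rose and 2 fell (1 fell without scl28 replicate 3), 26.9% against the background of 45%, and the largest change in either direction was -0.42. CDC20.1, an activator of the anaphase-promoting complex, had 140, 167, 138 and 159 CPM in d14-7 and 129, 115, 117 and 108 CPM in scl28 (0.37 ± 0.08, edgeR adjusted p = 0.00224, a call lost with all 16 libraries in the model). The mitotic kinase gene CDKB1;1 had 24.2, 29.3, 24.3 and 25.2 CPM in d14-7 and 31.1, 42.8, 33 and 31.8 CPM in scl28 (-0.42 ± 0.10), and the scl28 libraries lay above the 18.7 to 26.3 CPM of WT while those of d14-7 partly overlapped it. In all 5 G2/M genes that rose and both that fell, the WT mean lay below both mutants. Between 2 and 6 G2/M genes rose over the alternatives, with 2 without d14-7 replicate 2, 3 without d14-7 replicate 4 or scl28 replicate 1, 3 or 4, and 2 with all 16 libraries in the model. Of 19 S phase genes 7 rose and 0 fell, 36.8% against the background of 45%. Over the alternatives 2 to 10 rose, with 2 or 3 without any of d14-7 replicates 1, 2 and 4 or scl28 replicates 3 and 4. ORC1B, of the origin recognition complex, rose by 0.54 ± 0.12 and the replication gene ICU2 by 0.34 ± 0.06. The calls of MCM2 (0.26) and CDT1A (0.30), whose groups overlapped, were lost with all 16 libraries in the model and without d14-7 replicate 2 or 4 or scl28 replicate 3, and that of MCM2 also without d14-7 replicate 1 or scl28 replicate 4. The promoter letters AACGG, the core of the element that MYB3R factors bind, were in 19 of 26 G2/M promoters (73.1%) against 26.2% of all, and in 10 of 20 CDK inhibitor promoters.

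Of 20 measured SIAMESE-RELATED (SMR) and KRP genes, 6 rose and 4 fell (2 fell without scl28 replicate 3), and this share of 50% is near the background of 45%. By at least 2-fold, 4 of the 20 rose and 1 fell, beside shares of 4.41% and 2.87% over all loci. AT1G08180, annotated as a CDK inhibitor, had 7.04, 7.54, 7.96 and 7.25 CPM in d14-7 and 3.54, 2.96, 3.01 and 3.77 CPM in scl28 (1.17 ± 0.12, edgeR adjusted p = 1.26e-05), with WT at 7.67 to 11.7 CPM. AT5G59360, counted to the family by the list but annotated as uncharacterized, had 3.75, 4.28, 3.95 and 4.35 CPM in d14-7 and 1.46, 1.75, 1.07 and 1.13 CPM in scl28 (1.61 ± 0.18). The SMR3-like genes AT1G51355 and AT5G40460 rose by 1.35 ± 0.20 and 1.23 ± 0.20, again without overlap. In 5 of the 6 that rose, WT was nearer to d14-7 than to scl28. SMR1 (-0.10 ± 0.11) and SMR4 (0.35) did not pass and SIM, the founding member, fell by 0.31 (SE 0.10). KRP2, of the other inhibitor family, had 23, 22.1, 25.9 and 21.2 CPM in d14-7 and 49.5, 59.7, 56.6 and 60 CPM in scl28 (-1.29 ± 0.08), whereas KRP1 rose by 0.99. Of 9 measured D-type cyclin genes, which drive entry into the cycle, 5 rose and 0 fell, 55.6% against the background of 45%. With any 1 library left out, 3 to 4 rose (3 without scl28 replicate 3). The cyclin gene CYCD3;1 had 100, 110, 92.4 and 103 CPM in d14-7 and 71.2, 64.8, 67.8 and 66.8 CPM in scl28 (0.59 ± 0.06), and CYCD1;1 rose by 0.38 ± 0.08. The call of CYCD4;2 (0.68 ± 0.21, groups overlapping) was lost without d14-7 replicate 1 or scl28 replicate 1 or 3. Of 8 MYB3R and endocycle genes 37.5% passed, against the background of 45%. The G2/M regulator MYB3R1 (0.25 ± 0.07) and the endocycle repressor DEL1 (0.46 ± 0.11, call lost with all 16 libraries in the model) rose. AT2G41710, annotated as a DNA-binding protein gene, fell by 0.39 (SE 0.06).

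**Figure D2:**
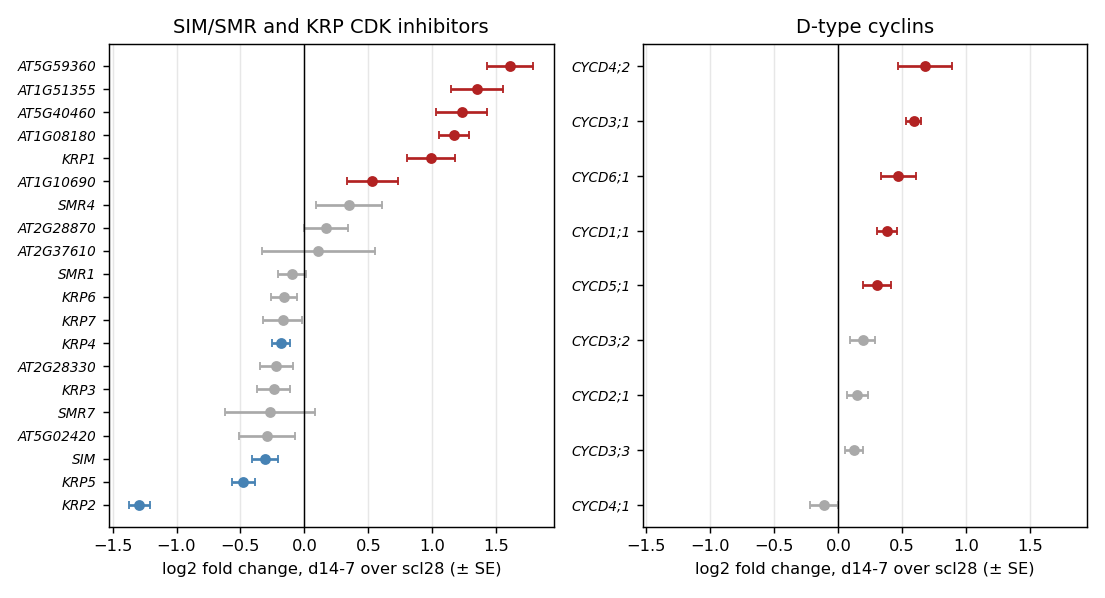
Log2 fold change of d14-7 over scl28, with its standard error, for the 20 measured CDK inhibitor genes and the 9 measured D-type cyclin genes, n = 4 libraries each. Red points passed the edgeR test as higher in d14-7, blue as lower, and grey did not pass. The inhibitors run from -1.29 (KRP2) to 1.61 (AT5G59360), and no cyclin fell.

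Cytokinin response genes were higher in d14-7. Of 8 measured type-A response regulators, which are induced by the hormone, 6 rose and 1 fell, with a median of 0.63. ARR5 had 25.7, 25.4, 25.6 and 28.9 CPM in d14-7 and 19.9, 17.2, 14.4 and 14.6 CPM in scl28 (0.68 ± 0.10, edgeR adjusted p = 0.000196), and ARR16 had 3.12, 4.07, 4.41 and 4.81 CPM in d14-7 and 1.23, 2.61, 0.773 and 0.722 CPM in scl28 (1.65 ± 0.35). ARR9 fell by 0.44 (SE 0.12) with overlap. In WT, ARR4 ran from 57.8 CPM in the library with leaf score 9.83 to 120 CPM in the one with 10.7, against 97.2 to 139 CPM in d14-7 and 79.4 to 87.1 CPM in scl28, and the part of leaf tissue in the difference was not tested. The list of cytokinin metabolism had 19 measured genes, of which 6 rose and 3 fell, 47.4% against the background of 45%. The breakdown gene CKX1 had 7.33, 7.57, 8.03 and 7.08 CPM in d14-7 and 40.4, 29.9, 41.4 and 39.2 CPM in scl28 (-2.32 ± 0.11, edgeR adjusted p = 2.5e-08), beside 27.5 to 35 CPM in WT. Its relatives went both ways, with CKX4 at 1.74 ± 0.20, CKX5 at 1.16 ± 0.22 and CKX7 at -0.68 ± 0.07. The synthesis genes IPT3 (0.72 ± 0.13) and IPT9 (0.62 ± 0.08) and the trans-zeatin gene CYP735A2 (1.44 ± 0.26) rose, and IPT1 (-1.27) fell.

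Genes of auxin synthesis and transport were mostly higher in d14-7, with 13 of 21 members up and 3 down (median 0.69). TAA1, which makes the precursor, had 14.1, 17.8, 15.7 and 16.9 CPM in d14-7 and 7.53, 8.63, 8.91 and 7.78 CPM in scl28 (0.98 ± 0.10, edgeR adjusted p = 8.56e-06). YUC2, of the flavin monooxygenases that finish the synthesis, had 5.35, 3.94, 4.28 and 4.06 CPM in d14-7 and 1.17, 0.722, 0.773 and 0.377 CPM in scl28 (2.53 ± 0.26), and YUC6 had 13.8, 13.6, 10.2 and 10.1 CPM in d14-7, against 3.93, 5.23, 3.33 and 4.27 CPM in scl28 (1.52 ± 0.16). YUC5, YUC8 and YUC9 rose by 4.40, 3.82 and 4.46 and were at 0.31 CPM or less in every scl28 library. YUC9 (SE 0.58) averaged 1.27 CPM in d14-7 and 0.0538 CPM in scl28, and counts this low limit the precision of such folds. In none of the 13 that rose was WT nearer to d14-7 than to scl28. Among the carrier genes, LAX2 rose by 0.69 ± 0.07 and PIN4 by 0.95 ± 0.11, PIN3 (-0.08 ± 0.10) did not pass, and LAX3 and the carrier-directing kinase gene PID fell by 0.41 (SE 0.10) and 0.66 (SE 0.09). Auxin response was mixed, with 6 of 13 up and 3 down. The amino acid conjugating genes GH3.3 and GH3.6 differed in sign. GH3.3 had 64.3, 61.8, 83.3 and 80.4 CPM in d14-7 and 27.5, 27.8, 29.9 and 30 CPM in scl28 (1.34 ± 0.10), and GH3.6 had 72.4, 59.9, 64.8 and 86.5 CPM in d14-7 and 170, 152, 164 and 240 CPM in scl28 (-1.35 ± 0.16). The shade-responsive repressor gene IAA29 had 3.37, 2.17, 10.7 and 13.5 CPM in d14-7 and 0.454, 0.378, 0.613 and 0.282 CPM in scl28 (4.09 ± 0.70), with the d14-7 libraries themselves spread several-fold.

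Gibberellin genes were mostly lower in d14-7, 10 of 19 down and 3 up. GASA1, a gibberellin-responsive peptide gene, had 2.57, 2.76, 2.67 and 2.65 CPM in d14-7 and 18.8, 23.2, 11.9 and 22.5 CPM in scl28 (-2.83 ± 0.20, edgeR adjusted p = 1.19e-06), with WT at 18.3 to 36.5 CPM. The inactivation gene GA2OX2 had 3.88, 4.9, 3.72 and 3.66 CPM in d14-7 and 13.9, 11.5, 13.8 and 14.8 CPM in scl28 (-1.74 ± 0.12). The synthesis gene GA3OX1 fell by 0.67 (SE 0.12) and the receptor gene GID1A by 0.75 (SE 0.06). The DELLA repressor genes went both ways, RGL1 at -0.38 ± 0.07 and RGL3 at 0.56 ± 0.12, and the call of RGL2 (0.37 ± 0.11) was lost without d14-7 replicate 1 or 2.

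Flowering genes were lower in d14-7 too, 13 of 17 down and 1 up, in plants staged by the same bolt height on different days. TFL1, which keeps shoot meristems vegetative and acts against flowering, had 7.96, 8.51, 7.34 and 7.95 CPM in d14-7 and 16.4, 17.1, 21.5 and 21.8 CPM in scl28 (-1.27 ± 0.11, edgeR adjusted p = 3.14e-06). SPL4, a phase change factor gene, fell by 1.05 (SE 0.11), and its relative SPL5 rose, with 8.43, 9.78, 10.9 and 8.55 CPM in d14-7 and 4.31, 7.15, 5.47 and 5.4 CPM in scl28 (0.76 ± 0.15). The MADS-box genes FLM and AGL24 fell by 0.70 (SE 0.07) and 0.47 (SE 0.06), FLC by 0.60 (SE 0.13), and the flowering integrator SOC1 by 0.29 (SE 0.09).

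Clock genes were mostly lower in d14-7, with 12 of 17 measured genes down, 1 up (2 without d14-7 replicate 4) and a median of -0.95. LHY, a morning MYB factor gene, had 183, 189, 189 and 184 CPM in d14-7 and 548, 521, 517 and 517 CPM in scl28 (-1.49 ± 0.06, edgeR adjusted p = 8.37e-09), and WT stood at 256 to 260 CPM. CCA1, its partner, had 114, 108, 105 and 105 CPM in d14-7 and 363, 330, 336 and 330 CPM in scl28 (-1.65 ± 0.06), with WT at 133 to 144 CPM. RVE1 and RVE8, related morning factors, fell by 2.05 (SE 0.08) and 1.19 (SE 0.06), and the flowering repressor gene CDF1 by 1.22 (SE 0.08). The spread within a genotype was small beside these differences, and in 10 of the 12 that fell WT was nearer to d14-7 than to scl28. Among the other members named here, PRR9 fell by 1.06 (SE 0.09) and GI by 0.36 (SE 0.11, overlapping), while PRR7 (0.04 ± 0.05) and TOC1 (-0.17 ± 0.07) did not pass. CCL, a clock output gene, had 14.5, 13.4, 23.3 and 23.3 CPM in d14-7 and 11.3, 11.6, 11 and 13.1 CPM in scl28 (0.68 ± 0.18). The exact hour of each harvest within the window of 9 to 11 is not given per library, and genotype, day and hour cannot be told apart here. The evening element AAATATCT was in 8 of 17 clock promoters (47.1%) against 5.87% of all. By at least 2-fold, it was in 9.35% of promoters of loci higher and 6.75% of those lower in d14-7.

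**Figure D3:**
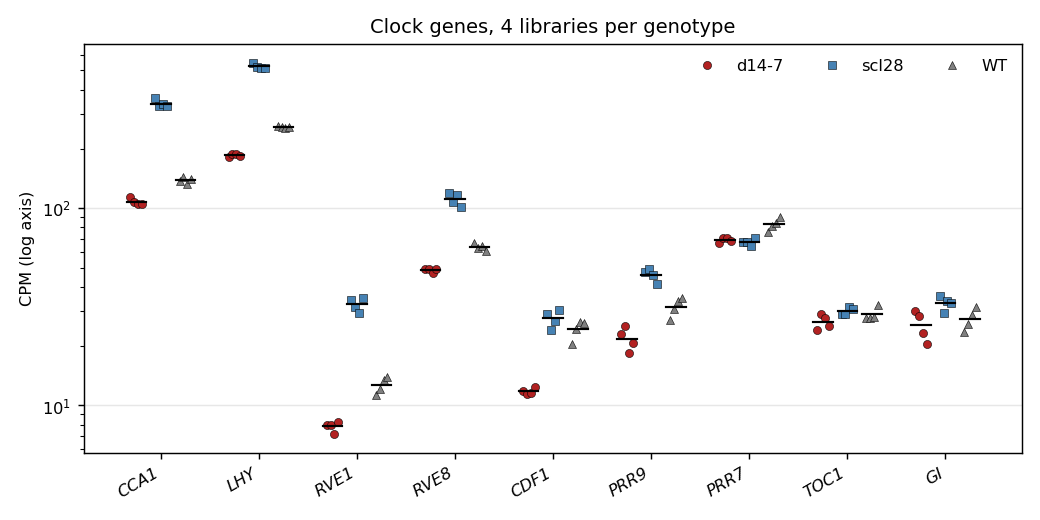
Level in CPM (log axis) of 9 clock genes in each library of d14-7 (circles), scl28 (squares) and WT (triangles), with a bar at the mean. CCA1 lies at 105 to 114 CPM in d14-7 and 330 to 363 CPM in scl28, and PRR7 overlaps.

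Jasmonate genes rose together in d14-7, 14 of 16 up, 10 of them by at least 2-fold, and 0 down, with a median of 1.17. LOX2, a lipoxygenase gene of jasmonate synthesis in leaves, had 673, 781, 603 and 632 CPM in d14-7 and 148, 203, 136 and 118 CPM in scl28 (2.16 ± 0.16, edgeR adjusted p = 2.38e-06), with WT at 175 to 535 CPM. The cyclase genes AOC1 and AOC2, whose reads may be split between close copies, summed to 24.5, 47.5, 34.3 and 41.6 CPM in d14-7 and 5.03, 4.17, 4.88 and 3.2 CPM in scl28. JAZ1, a repressor gene induced by the hormone, had 32.9, 45.2, 48 and 44.7 CPM in d14-7 and 14.2, 15.4, 15.7 and 17.7 CPM in scl28 (1.44 ± 0.11). MYC2, the leading factor of the response, did not pass (0.11), nor did the storage protein gene VSP1 (0.76). The defensin genes PDF1.2, PDF1.2b, PDF1.2c and PDF1.3 are near-identical copies among which reads may be split. Together they had 756, 699, 614 and 392 CPM in d14-7, against 9.22, 17.6, 1.76 and 2.07 CPM in scl28, a ratio of means of 80.2, and without scl28 replicate 2 the change of PDF1.2 was 7.19 in place of 6.35 ± 0.77. WT lay between at 57.7 to 191 CPM. In WT the library with the highest leaf score also held the most LOX2 and AOC2, at 535 and 23.3 CPM, and the part of leaf tissue in these rises was not tested.

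Salicylic acid defence genes were higher in d14-7, 15 of 20 up and 1 down (median 0.51). PR5, a pathogenesis-related gene, had 137, 77, 87 and 63.7 CPM in d14-7 and 29.8, 21.8, 33.5 and 23.9 CPM in scl28 (1.74 ± 0.26, edgeR adjusted p = 0.00092). EDS5, a transporter gene of salicylic acid synthesis, had 41.5, 32.8, 39 and 29 CPM in d14-7 and 17.5, 16.4, 16.9 and 14.7 CPM in scl28 (1.12 ± 0.11), and the defence factor gene WRKY18 rose by 0.76 ± 0.08. In 14 of the 15 that rose the WT mean lay above both mutants, as in PR1, which had 7.11 to 24.7 CPM in d14-7 and 3.8 to 7.23 CPM in scl28, beside 90.8 to 239 CPM in WT. WRKY70, a factor gene of the same response, was the member that fell (-0.30 ± 0.06), and PAD4 (-0.05) and NPR1 (0.08) did not pass. Among 7 wounding and touch markers, TCH3 (1.68 ± 0.25) and WRKY33 (1.06 ± 0.17) rose and 0 fell (1 fell without scl28 replicate 3), with ZAT12 at -0.98 and TCH2 at -0.63 not passing.

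Genes of flavonoid synthesis were lower in d14-7, 10 of 14 down and 1 up. TT7, the flavonoid 3'-hydroxylase gene, had 78.2, 77, 44.3 and 42.7 CPM in d14-7 and 145, 164, 166 and 141 CPM in scl28 (-1.34 ± 0.21, edgeR adjusted p = 0.000941). The reductase gene DFR and the regulator gene TT8 fell by 0.58 (SE 0.10) and 0.62 (SE 0.09), while MYB111, which activates flavonol synthesis, rose by 1.52 ± 0.29. WT was nearer to d14-7 than to scl28 in all 10 that fell. Sugar starvation and trehalose phosphate synthase genes showed no common direction, with 4 of 17 up (2 without any of d14-7 replicates 1, 3 and 4 or scl28 replicate 1) and 4 down, near the background. The 4 up include BZIP1, whose scl28 values may not be reliable. In this list the catabolic gene BCAT2 (-0.83 ± 0.15, call lost when transcript models were tested singly), the starch synthesis gene APL3 (-0.81 ± 0.12) and TPS10 (-0.74 ± 0.14) fell. BZIP1, a factor gene of low energy response, held 2.15, 1.71, 1.81 and 2.62 CPM in d14-7 and was listed at 0 in all 4 scl28 libraries. It was also listed at 0 in WT replicates 2 and 3, beside 2.99 and 2.21 CPM in the other WT libraries, where an estimate of 0 can be a failed one, and no fold is given.

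**Figure D4:**
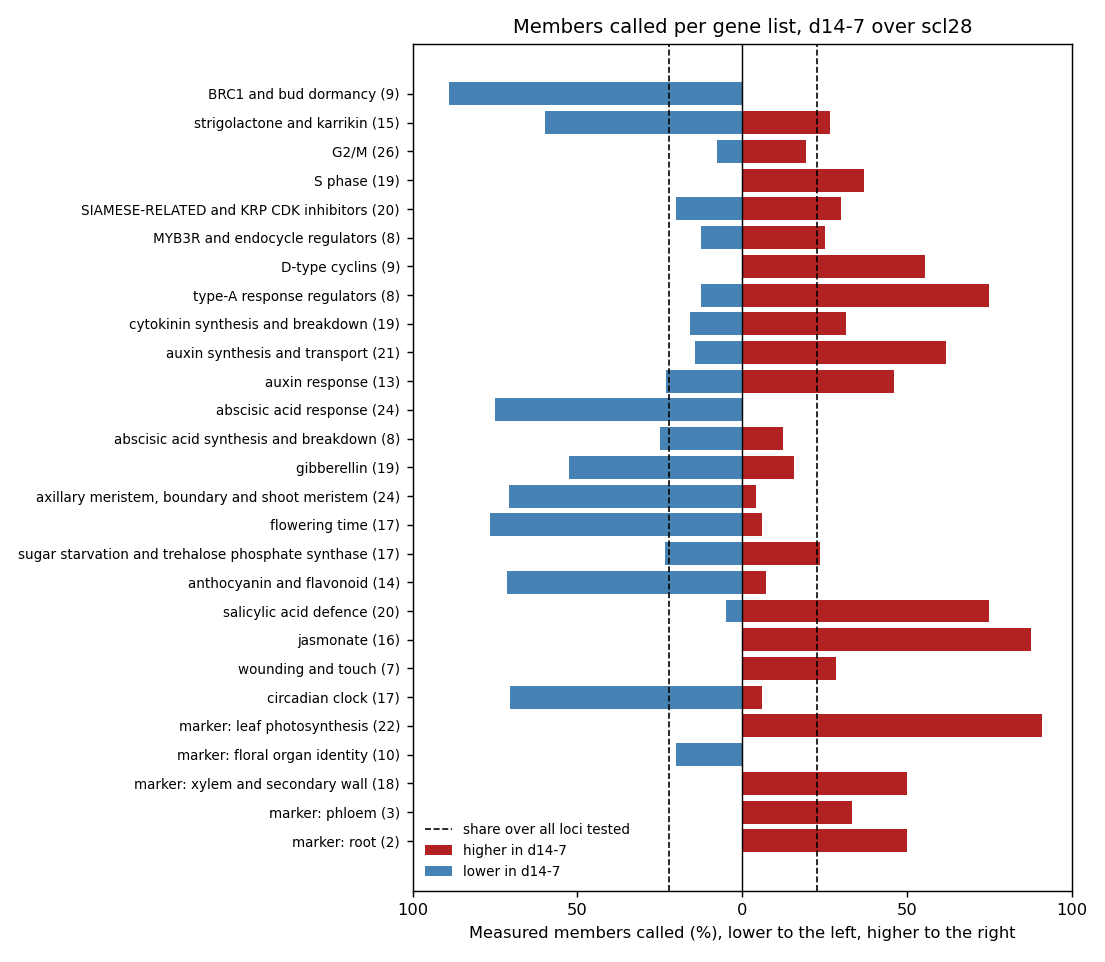
Share of the measured members of each gene list that passed the edgeR test as higher in d14-7 (red, to the right) or lower in d14-7 (blue, to the left), with the number measured in parentheses. Dashed lines mark the shares over all loci, 22.7% higher and 22.3% lower. Bud dormancy, abscisic acid response, flowering and clock lists extend to the left, jasmonate and leaf photosynthesis to the right.

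Among genes with a symbol, many of the largest single changes stood outside the hormone lists. MRD1, named for its response in the mto1 methionine mutant, had 64, 61.7, 57.6 and 62.3 CPM in d14-7 and 0.0324, 0.138, 0.0533 and 0.251 CPM in scl28 (9.00 ± 0.19, edgeR adjusted p = 3.54e-11), and WT held 56.4 to 62.5 CPM, the level of d14-7. BGLU47, a beta-glucosidase gene, had 2.57, 3.69, 2.3 and 3.74 CPM in d14-7 and 70.2, 70.1, 61.9 and 51.2 CPM in scl28 (-4.34 ± 0.16), with WT at 10.3 to 15 CPM between them. FSD1, an iron superoxide dismutase gene, and UMAMIT14, an amino acid exporter gene, stood at -3.18 ± 0.43 and -3.26 ± 0.36. Among the rises, the terpene synthase gene TPS04 had 2.06, 4.28, 9.58 and 6.33 CPM in d14-7 and 0.389, 0.172, 0.24 and 0.157 CPM in scl28 (4.53 ± 0.52), and the nitrate transporter gene NRT2.5 had 2.86, 1.92, 13.7 and 4.2 CPM in d14-7 and 0.162, 0.138, 0.0533 and 0.377 CPM in scl28 (4.97 ± 0.88). CSLA01, a cellulose synthase-like gene, had 17.7, 15.2, 2.93 and 4.81 CPM in d14-7 and 0.195, 0.206, 0.267 and 0.157 CPM in scl28 (5.58 ± 0.80). The subtilase gene SBT4.12, the methionine sulfoxide reductase gene MSRB7, the nitrilase gene NIT4 and the acyltransferase gene AACT1 rose by 4.35 ± 0.35, 4.25 ± 0.37, 4.20 ± 0.39 and 4.17 ± 0.26. Groups did not overlap in these genes, which the naming rule required, and the d14-7 libraries of NRT2.5 and CSLA01 were uneven. Some of these values moved with the libraries or models used: NRT2.5 stood at 4.03 without d14-7 replicate 3 and 5.61 without scl28 replicate 4, MSRB7 at 5.06 without scl28 replicate 3, and MRD1 at 9.66 without scl28 replicate 4. When transcript models were tested singly, the SBT4.12 model with the most counts stood at 5.78.

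**Figure D5:**
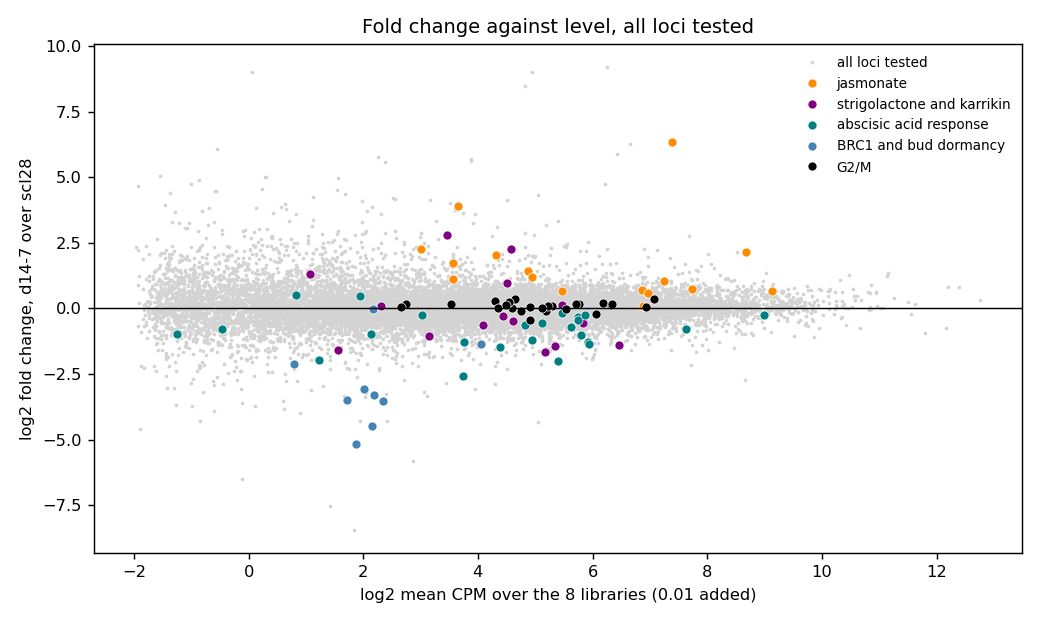
Log2 fold change of d14-7 over scl28 against the log2 mean CPM of the 8 libraries for each of the 20408 loci tested (grey), with members of 5 lists in colour. The dormancy genes lie lowest among the coloured points, down to -5.18 (HB40), jasmonate genes highest, up to 6.35 (PDF1.2), and G2/M genes stay between -0.42 and 0.37.

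WT positions differed with the size of the change. Over all called loci, WT was nearer to scl28 at 66.5% of those higher and 66.4% of those lower in d14-7, and it lay between the mutants at 59.2% and 69.9%. Among loci higher in d14-7 by at least 2-fold, WT lay between the mutants at 75.4%, and nearer to d14-7 at 56.4%. Among loci lower in d14-7 by at least 2-fold, WT lay between at 77.5% and nearer to scl28 at 77.8%. In the lists, all 8 called dormancy genes and 16 of the 18 abscisic acid response genes that fell had WT nearer to scl28, whereas the clock, flavonoid and salicylic acid genes mostly had WT nearer to d14-7. The 4 WT libraries entered these positions as means, and their spread was wide in genes such as NCED3 and LOX2.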

How the data were processed

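Poly(A) RNA of Arabidopsis thaliana was sequenced in 16 libraries of 4 genotypes, of which the 4 d14-7, 4 scl28 and 4 WT libraries are described here. The authors deposited estimated counts per transcript model, already whole numbers and not normalized. The genome build TAIR10 and DESeq2 are named in the submitters' processing notes, without a version for DESeq2; for the aligner, counting tool, strand setting and filters the sources used here give no name. The library kit named in the labels' protocols does not mark strand, so reads of a gene and of an antisense partner cannot be told apart, and genes with near-identical copies are uncertain. A second deposited table of normalized values was not used.

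Counts of 41671 transcript models were summed to 33602 loci. Gene names and coordinates were taken from the RefSeq annotation of TAIR10.1, which held 32835 of these loci and a symbol for 10654. Loci were filtered with filterByExpr and compared in R 4.3.3 by edgeR 4.0.16 (robust quasi-likelihood fit, F test, TMM normalization), d14-7 over scl28, with Benjamini-Hochberg adjustment over 20408 loci and a threshold of 0.05. Errors of fold changes are standard errors. CPM values were scaled with TMM factors over all 16 libraries. Tissue scores are mean log2 CPM with a prior count of 2. Within a group, no 2 libraries agreed within sampling noise. The spread behind each p-value is that between pooled tissue samples of 1 harvest day per genotype. WT was not in the test.

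The comparison and the 28 gene lists (438 entries, 1 without counts) were chosen with earlier results of these data known. Genes named are the 2 targeted genes, all members of the dormancy and strigolactone lists, and of each other list the 4 called members of smallest adjusted p and 2 called in the opposite direction. To these come the 12 largest rises and 12 largest falls with a symbol, a mean of at least 2 CPM and no overlap, 140 genes in all, of which not all are printed. Other members, such as CUC3, LAS, SMR1, PIN4 and CKX5, were chosen after their values were seen. Alternatives were DESeq2-type size factors, upper-quartile factors, no filter, a stricter filter, DESeq2 1.42.0, limma-voom (limma 3.58.1), all 16 libraries in 1 model, transcript models tested singly, a replicate block and each of 8 libraries left out. With transcript models tested singly, a named gene was represented by its tested model with the most counts.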

Additional observations from a re-analysis of the deposited data

Results flagged for a closer look

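Of 290 groups of 4 libraries checked, 12 held 1 library far from the other 3 by Dixon's criterion, which chance alone meets in about 1 group in 20. Several were in scl28 replicate 2, where BRC1 stood at 5.44 CPM beside 9.25 to 9.89 CPM in the other scl28 libraries, CDKB1;1 at 42.8 CPM beside 31.1 to 33 CPM, and CYCD4;2 at 2.96 CPM beside 1.65 to 1.79 CPM. In scl28 replicate 3, LEA4-5 stood at 17.8 CPM beside 12.9 to 13.7 CPM and ABA2 at 44.6 CPM beside 42.3 to 42.7 CPM. In scl28 replicate 4, NRT2.1 stood at 3.45 CPM beside 1.17 to 1.49 CPM and BCAT2 at 20.2 CPM beside 16.8 to 17.2 CPM. In scl28 replicate 1, LHY stood at 548 CPM beside 517 to 521 CPM and D14 at 37.5 CPM beside 40.1 to 40.2 CPM. In d14-7 replicate 4, the dormancy gene DRM2 stood at 1.07 CPM beside 0.421 to 0.528 CPM and ARR5 at 28.9 CPM beside 25.4 to 25.7 CPM. In d14-7 replicate 3, RVE8 stood at 47.2 CPM beside 49.1 to 49.4 CPM.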

How the results depend on the processing

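The number of called loci was 7982 when transcript models were tested singly and 9490 with DESeq2, and 7817 to 9405 when 1 library was left out, and 7635 to 9144 loci were shared in direction with the 9180 called. When transcript models were tested singly, 18 called loci had a model called in the opposite direction, which occurred under no other alternative. All 8 dormancy falls and the 4 rises of the strigolactone list were called under every alternative run, as were 17 to 20 falls in abscisic acid response and 14 or 15 rises in the jasmonate list. Replicate numbers did not pair the samples: the deviations of same-numbered d14-7 and scl28 libraries correlated at 0.062, 0.056, -0.025 and -0.096, and with a replicate block 8633 loci were called, 4419 higher and 4214 lower in d14-7. The block left 0 phloem genes up and 2 flowering genes up, as did no filter, which also left 0 root genes up. With all 16 libraries in the model, 2 G2/M, 2 S phase, 1 MYB3R and endocycle, 2 clock and 0 root genes rose and 1 wounding gene fell. Transcript models left 3 S phase, 0 phloem and 0 root genes up, and limma-voom gave 1 xylem gene lower. Leaving out 1 library gave 2 to 6 G2/M rises, 1 to 2 G2/M falls, 2 to 10 S phase rises, 2 to 4 CDK inhibitor falls, 3 to 4 cyclin rises, 2 to 5 sugar list rises, 1 to 2 rises in abscisic acid metabolism and in the clock list, and 0 to 1 for rises in abscisic acid response, floral, phloem and root genes and for falls in wounding and xylem genes. Leaf scores then differed by 0.69 to 0.82 and root scores by 0.64 to 0.83, where 3 against 4 libraries cannot reach a p under 0.0571. Of 2380 pairs of a named gene and an alternative, 2330 kept direction and call, 44 lost the call and 6 changed sign, all 6 in genes never called: BRC2 ran from -0.08 to 0.04 and KUF1 from -0.01 to 0.19. At loci under 1 CPM the counts limit the precision of a fold change. The cause of these shifts was not tested.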

Other observations

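Loci without a gene symbol also held wide differences, and 2 were picked after their values were seen. AT3G16670, annotated as a Pollen Ole e 1 allergen and extensin family protein, had 103, 89.3, 252 and 163 CPM in d14-7, against 0.13, 0.688, 0.16 and 0.0942 CPM in scl28 (log2 fold change 9.20 ± 0.65, edgeR adjusted p = 4.97e-05). Its WT libraries spread from 1.32 to 33.6 CPM. AT3G17520, a late embryogenesis abundant family gene, had 2 counts over the 4 d14-7 libraries, against 930 over the 4 scl28 libraries, and the scl28 over d14-7 count ratio was 457 with an interval from 126 to 3780 that covers counting error only. WT held 1.11 to 6.4 CPM.

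Some genes separated d14-7 replicates 3 and 4 from replicates 1 and 2. IAA29, TT7, CCL and CSLA01 are given above, with IAA29 and CCL higher and TT7 and CSLA01 lower in replicates 3 and 4. YUC8 had 1.05, 0.683, 3.52 and 2.76 CPM in replicates 1 to 4. The labels give no batch for these libraries.

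The letters ATAACAA, known as a site that SMXL6 binds, were searched after the values were seen, on both strands of the 300 bases around the start. They were in 1 of the 3 promoters of SMXL6, SMXL7 and SMXL8 and in 13.2% of all 19999 promoters. Promoter coordinates and sequences are those of TAIR10.1 in RefSeq.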
